A study of Mus musculus with 6 samples.

Results

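Mitochondrial ribosomal proteins build the mitochondrial ribosome, and their genes were compared between control and Hif1a mutant hearts of mouse embryos. They were taken as every gene of the deposited expression table whose symbol is Mrpl or Mrps, a number and at most 1 further letter. That gave 76 of 15118 genes, namely 47 large subunit (Mrpl) and 29 small subunit (Mrps) symbols, and all 76 had values high enough to be tested. The symbol alone decides membership, and the list was taken up with earlier results of these data known. The hearts came from Black-Swiss embryos at E12.5, when the fetal heart already has its chambers, and each library was made from total RNA. The 3 control hearts (numbered 2, 5 and 9) had the genotype NKX2-5 Cre/WT with Hif1a WT/flox, and the 3 mutant hearts (5, 8 and 10) had NKX2-5 Cre/WT with Hif1a Null/flox. Every heart thus carried 1 Cre allele of the cardiac gene Nkx2-5 and 1 floxed Hif1a allele, and the other Hif1a allele was wild type in controls and null in mutants. The hearts also contain cells in which this Cre is not active, and these keep an intact floxed allele. The labels do not say whether the hearts came from separate litters, so the p-values cover only the spread between these hearts, which may in part be technical.

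The mitochondrial ribosome translates the few messenger RNAs of the mitochondrial genome, which encode core subunits of the respiratory chain and of ATP synthase. Its RNAs come from the mitochondrial genome, whereas its proteins are all encoded in the nucleus, made in the cytosol and imported. Compared with its bacterial relative it has less RNA and more protein, and many of its proteins have no bacterial homologue. Heart muscle is rich in mitochondria, and the respiratory chain builds up in it during fetal life. HIF1, of which Hif1a encodes the oxygen-regulated subunit, is known for activating glycolytic genes and restraining mitochondrial respiration in hypoxic cells.

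The values are RPKM, the reads per kilobase of exon scaled to the reads in each library. Steps in the low values imply between 101000000 (mutant 8) and 157000000 (mutant 10) reads in a library. Log2 changes are mutant minus control on log2(RPKM + 1), given with the standard error, and adjusted p-values are from limma with Benjamini-Hochberg adjustment over 13080 tested genes. The first principal component held 45.3% of the variance and had control 2 at one end (-21.4) and mutant 8 at the other (26.2), with mutant 5 (-5.71) between controls 5 (-8.01) and 9 (-0.15). Cardiomyocyte markers were abundant in every heart, with 2893 RPKM of the troponin gene Tnnt2 in controls. The liver and lung genes Alb, Sftpc and Nkx2-1 are not among the genes of the table. The liver gene Afp had 2.55, 1.32 and 0.24 RPKM in controls 2, 5 and 9 and 0.65, 0.23 and 0.01 RPKM in mutants 5, 8 and 10. Ttr, also a liver gene, had 0.908 ± 0.251 RPKM in controls and 1.01 ± 0.496 RPKM in mutants. Both were too low to be tested. Of the neural genes, Elavl4 was under 1 RPKM on average, Stmn2 had 2.04 ± 0.808 RPKM in controls and 2.10 ± 0.409 RPKM in mutants, and Tubb3 had 1.26, 1.81 and 1.87 RPKM in controls and 2.70, 2.12 and 3.14 RPKM in mutants without overlap (log2 change 0.46, limma adjusted p = 0.25). Summed levels of 11 macrophage markers ranged from 40.8 to 48.3 RPKM in controls and from 14.6 to 35.2 in mutants, with a negative log2 change in 11 of 11. Those of 10 epicardial and mesenchymal markers ranged from 431 to 491 RPKM against 283 to 397 (negative in 9), and those of 10 endothelial markers from 126 to 146 RPKM against 115 to 138 (negative in 8). Those of 8 cardiomyocyte markers ranged from 9381 to 11102 RPKM against 10442 to 12188 (positive in 5), and those of 8 erythroid markers from 13961 to 16570 RPKM against 11718 to 21062 (positive in 3). None of the markers passed limma's adjusted threshold. In whole hearts fewer cells of a type and less RNA per cell cannot be told apart, and the part of these markers in the results below was not tested. Hif1a itself was listed at 51.3 ± 8.54 RPKM in controls and 69.5 ± 12.6 RPKM in mutants (SD, n = 3 each; limma adjusted p = 0.36). A gene total does not show which exons were removed, so this value does not check the genotype.

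The summed level of both subunits was higher in every mutant heart than in every control heart. The 47 large subunit genes summed to 1527, 1416 and 1489 RPKM in controls 2, 5 and 9, and to 1608, 1694 and 1579 RPKM in mutants 5, 8 and 10. The means were 1477 ± 56.3 RPKM and 1627 ± 59.9 RPKM (SD, n = 3 each), a ratio of 1.10. The 29 small subunit genes summed to 769.8, 746 and 763 RPKM in controls and to 847, 891 and 848 RPKM in mutants. Their means were 759.8 ± 12.1 RPKM and 862 ± 25.2 RPKM, a ratio of 1.13. In RPKM, the lowest mutant thus lay above the highest control by more in the small than in the large subunit. Mrpl42, by far the most abundant member, did not decide the separation of the large subunit sums. Without it they were 1253 ± 23.7 RPKM in controls and 1387 ± 45.3 RPKM in mutants, with no overlap. The order of the gaps did depend on Mrpl42. Without it the lowest mutant (1355 RPKM, mutant 10) lay above the highest control (1267 RPKM, control 9) by more than in the small subunit. The members made up between 0.643% and 0.655% of the summed RPKM of a control library and between 0.693% and 0.713% of a mutant library.

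The proportion of large to small subunit transcripts did not separate the genotypes. The ratio of the summed levels was 1.98, 1.90 and 1.95 for controls 2, 5 and 9 and 1.90, 1.90 and 1.86 for mutants 5, 8 and 10. Its mean was 1.94 ± 0.0435 in controls and 1.89 ± 0.0212 in mutants, and the groups overlapped. The mean log2 level of large minus that of small subunit genes was 0.15, 0.09 and 0.12 for the controls and 0.11, 0.08 and 0.08 for the mutants, again with overlap.

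**Figure D1:**
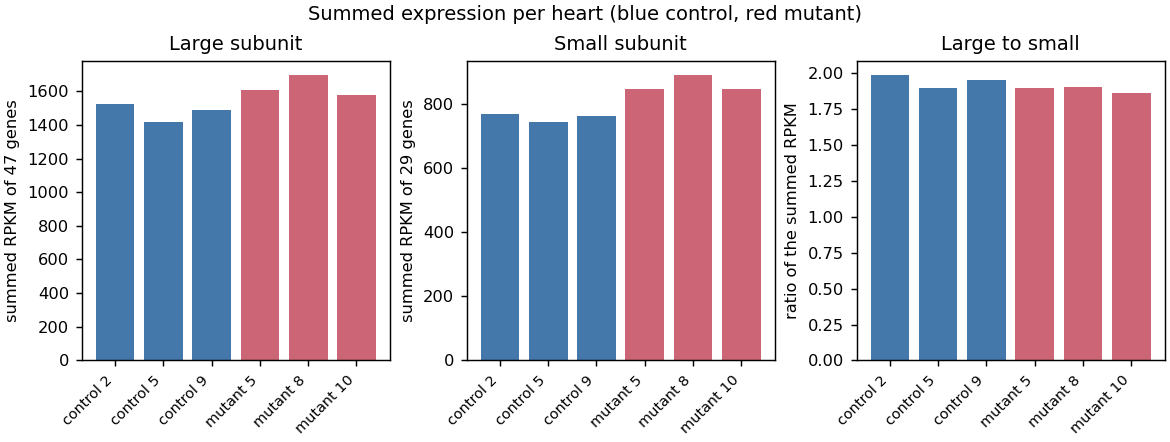
Summed level in RPKM of the 47 large and 29 small subunit genes, and the ratio of both sums, in each of the 6 hearts (bars). The mutant hearts lie above the control hearts in both sums, and the genotypes overlap in the ratio.

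No single mitochondrial ribosomal protein gene passed the threshold. By limma, 0 of 76 had an adjusted p under 0.05, and the smallest was 0.082 (Mrps18b). Among all tested genes 107 of 13080 passed, 0.818%, of which 55 were higher in mutants (0.42%). Median centring moved that split to 57 higher of 91, and rescaling without haemoglobin genes to 54 of 133. At an unadjusted limma p under 0.05, 19 of 76 members were higher and 0 lower in mutants, against 4.92% higher and 6.26% lower over all genes. Rescaled without haemoglobin genes, 11 were higher at that p (3.01% of all genes), and among the 4 hearts with chromosome Y expression, without control 9 and mutant 8, 10 were (3.37%). In 26 of 76 members (34.2%) every mutant heart was above every control heart, and in 0 every mutant heart was below, against 7.6% and 9.43% of all tested genes. A positive log2 change was found in 67 of 76 members (88.2%), against 42.6% of all genes. The median log2 change was 0.12 over the members and -0.03 over all genes. The members were also more abundant, with a median level of 22.8 RPKM against 5.79 RPKM over all tested genes. With a minimum of 5 RPKM, 7320 genes were tested, with a median log2 change of -0.01. At an unadjusted limma p under 0.05, 6.37% of these were higher, and again 19 members. Genes of a shared machine vary together, so these counts describe the list and are not 76 separate observations. Leaving out a heart can only keep or raise the count without overlap, in the members and in all genes alike. It was 40 of 76 members without control 2, against 10.5% of all genes, and 29 without mutant 10, against 10.1%.

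Large and small subunit genes differed little in their medians and in their shares of positive changes. Of 47 large subunit genes 41 had a positive log2 change (median 0.12) and 14 were higher without overlap (29.8%). Of 29 small subunit genes 26 had a positive change (median 0.15) and 12 were higher without overlap (41.4%). Over all tested genes 7.6% were higher without overlap. The medians differed by -0.028, large minus small, and the difference was -0.090 without mutant 5 and turned to 0.0076 without control 2. Mrps30 and Mrps18a sit in the large subunit despite their symbols, and with both counted there the medians were again 0.12 and 0.15. Members with a bacterial homologue had a positive change in 27 of 29 large subunit genes (median 0.12) and in 15 of 16 small subunit genes (0.15). Members without one had a positive change in 14 of 18 large subunit genes, Mrps30 included (0.10), and in 7 of 9 small subunit genes (0.13). Mrpl55, Mrps18a, Mrps18b and Mrps36 were not sorted into these classes.

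**Figure D2:**
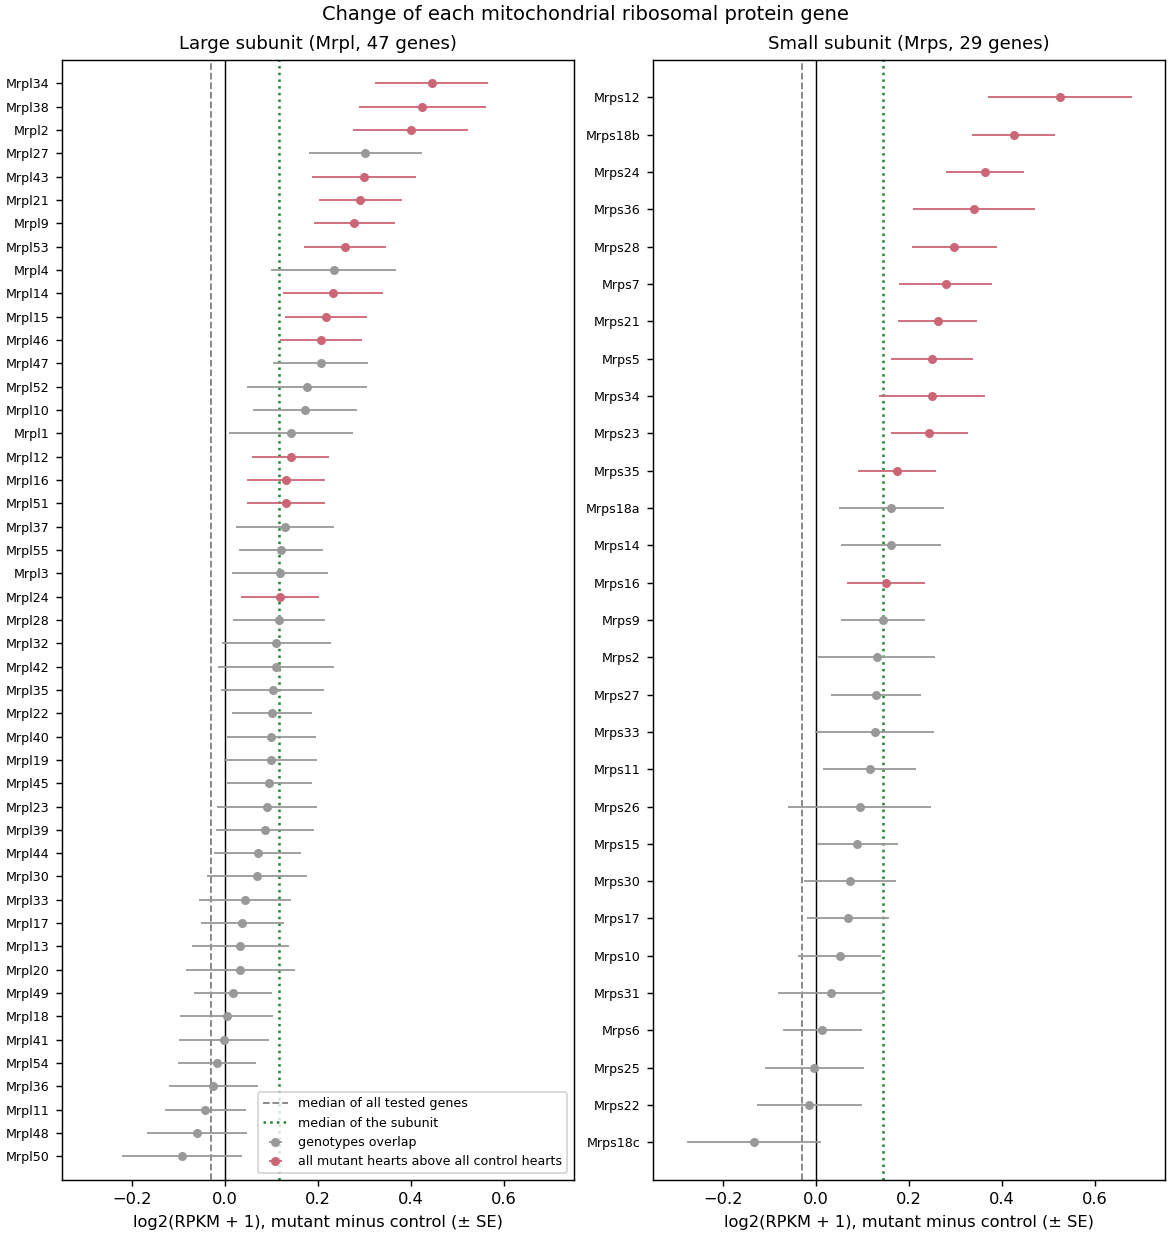
Log2 change on log2(RPKM + 1), mutant minus control, with its standard error for each of the 76 members, large and small subunit apart, beside the median of all tested genes. Of the members 67 lie above 0, and none passed limma's adjusted threshold.

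Heart by heart, the members' shift was of similar size in the 3 mutants. The median deviation from the control mean, over 76 members on the log2 scale, was 0.13 in mutant 5, 0.14 in mutant 8 and 0.14 in mutant 10. In controls 2, 5 and 9 it was -0.00, -0.01 and 0.01. Over all tested genes the same median was -0.00, -0.07 and -0.00 in the mutants and -0.04, 0.04 and -0.01 in the controls. Of 76 members 66, 60 and 61 were above their control mean in mutants 5, 8 and 10. Mutant 8 had the highest of the 6 values in 30 members, mutants 5 and 10 in 15 each, and control 2 in 14. Control 2 had the lowest value in 31 members and control 5 in 26. Control 2 and mutant 8, which lay furthest apart on the first principal component, were each highest in some members and lowest in others.

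The large subunit genes with the highest log2 changes were Mrpl34, Mrpl38, Mrpl2, Mrpl27 and Mrpl43. Mrpl34, a small protein with a bacterial homologue (chromosome 8, 71464959 to 71465747, mm10, plus strand), had 34.5, 40.3 and 40.0 RPKM in controls 2, 5 and 9 and 46.2, 60.9 and 50.8 RPKM in mutants 5, 8 and 10. All mutants were above all controls, and mutant 8 stood highest (log2 change 0.44 ± 0.12, limma adjusted p = 0.19). Mrpl38, which has no bacterial homologue, had 13.0, 15.6 and 16.6 RPKM in controls and 17.1, 23.5 and 21.2 RPKM in mutants. Its highest control and lowest mutant were close, and mutant 8 was again highest (0.42 ± 0.14, limma adjusted p = 0.28). Mrpl2, the homologue of a protein near the site of peptide bond formation, had 33.8, 36.9 and 38.4 RPKM in controls and 43.7, 58.2 and 44.2 RPKM in mutants. Mutants 5 and 10 were alike and mutant 8 higher (0.40 ± 0.12, limma adjusted p = 0.26).

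Mrpl27, whose bacterial homologue reaches into the peptidyl transferase centre, overlapped between the genotypes. It had 28.4, 28.6 and 34.1 RPKM in controls and 36.7, 43.3 and 33.3 RPKM in mutants (0.30 ± 0.12, limma adjusted p = 0.40). Mrpl43 had 11.8, 11.8 and 13.1 RPKM in controls and 13.2, 17.2 and 15.8 RPKM in mutants (0.30 ± 0.11, limma adjusted p = 0.36). Its genotypes only just separated, since mutant 5 barely exceeded control 9. Mrpl43 shares 507 of its 1520 exonic bases with Twnk on the opposite strand, and it is not known whether the counting used strand.

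The small subunit genes with the highest log2 changes were Mrps12, Mrps18b, Mrps24, Mrps36 and Mrps28. Mrps12, the homologue of a bacterial protein of the decoding site (chromosome 7, 28739641 to 28741820, minus strand), had 14.2, 18.3 and 20.4 RPKM in controls 2, 5 and 9 and 22.6, 30.9 and 23.8 RPKM in mutants 5, 8 and 10. It had the highest log2 change of all members (0.53 ± 0.15, limma adjusted p = 0.23), with means of 17.6 ± 3.11 and 25.8 ± 4.47 RPKM. Control 2 was low and mutant 8 high within their groups.

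Mrps24 and Mrps18b had the smallest standard errors of these 5 genes. Mrps18b (chromosome 17, 35910379 to 35916389, minus strand) had 15.0, 16.4 and 15.6 RPKM in controls and 20.4, 21.2 and 22.6 RPKM in mutants. Its means were 15.7 ± 0.711 and 21.4 ± 1.15 RPKM (0.43 ± 0.09, limma adjusted p = 0.082). With the trends on GC content and exon length removed, an alternative added after the data were seen, Mrps18b passed (0.38 ± 0.06, limma adjusted p = 0.028). Its adjusted p ranged from 0.028 to 0.39 over 17 alternatives. Mrps24 (chromosome 11, 5703983 to 5715680, minus strand), the homologue of a bacterial small subunit protein, had 37.7, 40.4 and 40.4 RPKM in controls and 50.6, 51.5 and 51.2 RPKM in mutants. The 3 mutants were nearly equal and all above the controls (0.36 ± 0.08, limma adjusted p = 0.11). Mrps18b shares 638 of 2089 exonic bases with the antisense gene Gm16279, and Mrps24 shares 226 of 1466 with Urgcp on its own strand.

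**Figure D3:**
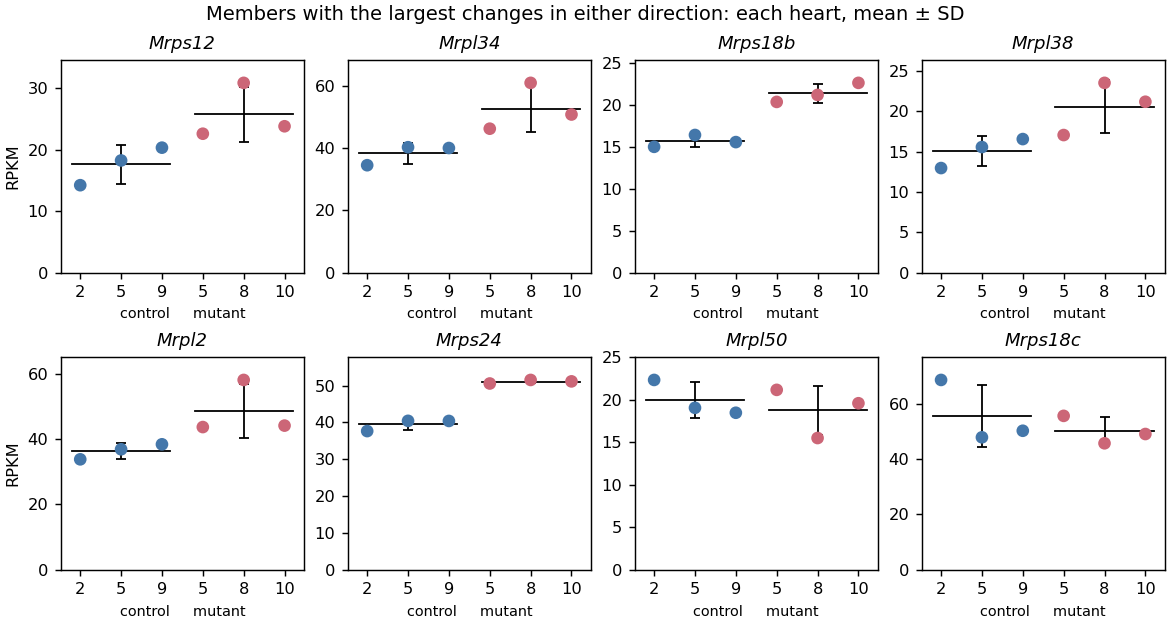
RPKM in each of the 6 hearts (points) for Mrps12, Mrpl34, Mrps18b, Mrpl38, Mrpl2, Mrps24, Mrpl50 and Mrps18c, with the mean and SD of each genotype. Mrpl50 and Mrps18c have the lowest log2 change of their subunit, and the others are among the highest. Mutant 8 lies highest in Mrps12, Mrpl34, Mrpl38 and Mrpl2, whereas the mutants lie close together in Mrps18b and Mrps24.

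Mrps36, a symbol since assigned to a subunit of the alpha-ketoglutarate dehydrogenase complex, had 54.5, 62.3 and 64.3 RPKM in controls and 65.9, 91.8 and 74.0 RPKM in mutants (0.34 ± 0.13, limma adjusted p = 0.38). Its lowest mutant was close to its highest control. By its symbol Mrps36 was kept in the small subunit sums, counts and rankings given here. Mrps28 had 23.5, 22.7 and 24.3 RPKM in controls and 30.3, 30.4 and 26.8 RPKM in mutants (0.30 ± 0.09, limma adjusted p = 0.25). Here mutants 5 and 8 were alike and mutant 10 lower. Beyond these, the other 10 large subunit genes without overlap were Mrpl9, Mrpl12, Mrpl14, Mrpl15, Mrpl16, Mrpl21, Mrpl24, Mrpl46, Mrpl51 and Mrpl53, and the other 7 small subunit genes were Mrps5, Mrps7, Mrps16, Mrps21, Mrps23, Mrps34 and Mrps35. Their log2 changes ranged from 0.12 (Mrpl24) to 0.29 (Mrpl21). Some of these share much of their exonic sequence with other genes. Mrpl53 shares 695 of 790 bases with Gm42688 on its own strand. Mrps34 shares 763 of 2064 bases with Nme3 on its own strand and 1309 with Mapk8ip3 on the other, so the values of both are uncertain.

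The 3 Mrps18 paralogues, which descend from a single bacterial small subunit protein, had different values. Mrps18b had the changes given above. Mrps18a, whose protein sits in the large subunit, had 19.3, 20.8 and 23.5 RPKM in controls and 20.9, 25.8 and 24.8 RPKM in mutants, with overlap (0.16 ± 0.11, limma adjusted p = 0.63). Mrps18c (chromosome 5, 100798627 to 100804471, plus strand) had 68.7, 47.9 and 50.3 RPKM in controls and 55.7, 45.8 and 49.1 RPKM in mutants. It had the lowest log2 change of all members (-0.13 ± 0.14, limma adjusted p = 0.77), and control 2 stood apart from the other 5 hearts. The difference between the paralogues was not tested.

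Only 9 of 76 members had a negative log2 change, and the genotypes overlapped in each of them. Besides Mrps18c these were Mrpl50 (-0.09), Mrpl48 (-0.06), Mrpl11 (-0.04), Mrpl36 (-0.02), Mrpl54 (-0.02), Mrps22 (-0.01), Mrps25 (-0.00) and Mrpl41 (-0.00). Mrpl50 had 22.3, 19.1 and 18.5 RPKM in controls and 21.2, 15.5 and 19.6 RPKM in mutants. Control 2 was its highest and mutant 8 its lowest heart, the opposite of Mrps12. Mrpl11, the homologue of a protein of the bacterial ribosome's factor-binding stalk base, had 19.2, 17.1 and 18.3 RPKM in controls and 17.9, 17.9 and 17.1 RPKM in mutants. Mrpl36, which lies at the factor-binding side of the large subunit, had 24.8 ± 1.91 RPKM in controls and 24.4 ± 1.41 RPKM in mutants. Mrpl41 had 32.1 ± 2.84 and 32.0 ± 1.59 RPKM. Mrps25 shares 4590 of its 6576 exonic bases with Nr2c2 on the opposite strand. Mrps6 (0.01) and Mrps31 (0.03) were the next lowest small subunit genes, with overlap in both.

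Mrpl12, a stalk protein also described as a partner of the mitochondrial RNA polymerase, had 85.5, 84.7 and 84.9 RPKM in controls and 90.4, 98.4 and 93.2 RPKM in mutants. Its control hearts were almost equal and the genotypes did not overlap (0.14 ± 0.08, limma adjusted p = 0.57). Mrps2, needed for small subunit assembly, had 13.8, 13.4 and 13.7 RPKM in controls and 12.2, 16.8 and 16.6 RPKM in mutants. Mutant 5 was its lowest heart, so the genotypes overlapped (0.13 ± 0.13, limma adjusted p = 0.73). Mrps30 had 18.3 ± 0.17 RPKM in controls and 19.4 ± 2.01 RPKM in mutants, also with overlap.

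The members covered a wide range of levels, which went only weakly with their changes. By mean RPKM over the 6 hearts, Mrpl42 (232), Mrpl52 (107) and Mrpl12 (89.5) were the highest large subunit genes, and Mrpl19 (7.03), Mrpl1 (7.34) and Mrpl17 (7.51) the lowest. Mrps36 (68.8), Mrps33 (68.3) and Mrps21 (68.0) were the highest small subunit genes, and Mrps10 (5.26), Mrps25 (5.43) and Mrps35 (11.0) the lowest. Mrpl42 itself had 260.2, 190.3 and 222 RPKM in controls and 242, 256 and 224 RPKM in mutants, with overlap (0.11 ± 0.12, limma adjusted p = 0.77). Mrpl52 had 90.3, 103 and 106 RPKM in controls and 106, 135 and 100.5 RPKM in mutants, with mutant 8 alone above the controls. Mrps21 had 59.5, 61.4 and 64.4 RPKM in controls and 75.6, 75.5 and 71.7 RPKM in mutants without overlap (0.26 ± 0.08, limma adjusted p = 0.28). Across the 76 members, which share the 6 libraries, Spearman's rho between mean level and log2 change was 0.12. In 66 members with a constitutive exon length, the reads behind a value were at least 1651. The SD that counting gives had a median of 0.02 on the log2 scale, against a median SD of 0.10 within genotypes, so counting was a small part of the spread between hearts.

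RefSeq promoter windows (GRCm38.p6), from 250 bases before the annotated start of transcription to 30 bases after it, were found for 67 of 76 members. Windows of the members that carry the comparison are shown 5′ to 3′ in the direction of transcription. Mrps12, Mrpl34, Mrps18b and Mrps24 are among those with the highest log2 changes, and Mrps18c has the lowest. Capitals mark matches to the letters CCGGAAG (an ETS factor motif) or ACGTG (a form of the core of the hypoxia response element), each searched on both strands. The windows span chr7:28741792-28742071 (minus), chr8:71464676-71464955 (plus), chr17:35916411-35916690 (minus), chr11:5707672-5707951 (minus) and chr5:100798509-100798788 (plus), in the order printed.
Mrps12: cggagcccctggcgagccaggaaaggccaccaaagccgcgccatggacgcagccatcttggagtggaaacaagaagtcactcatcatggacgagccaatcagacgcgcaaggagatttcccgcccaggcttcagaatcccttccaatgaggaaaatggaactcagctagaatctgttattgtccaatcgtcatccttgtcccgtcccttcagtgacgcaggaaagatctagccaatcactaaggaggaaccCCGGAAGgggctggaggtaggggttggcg
Mrpl34: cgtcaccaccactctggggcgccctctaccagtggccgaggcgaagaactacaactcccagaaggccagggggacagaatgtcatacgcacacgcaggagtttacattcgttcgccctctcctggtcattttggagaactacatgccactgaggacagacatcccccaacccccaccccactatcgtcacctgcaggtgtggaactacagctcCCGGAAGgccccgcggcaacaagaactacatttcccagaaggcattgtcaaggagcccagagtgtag
Mrps18b: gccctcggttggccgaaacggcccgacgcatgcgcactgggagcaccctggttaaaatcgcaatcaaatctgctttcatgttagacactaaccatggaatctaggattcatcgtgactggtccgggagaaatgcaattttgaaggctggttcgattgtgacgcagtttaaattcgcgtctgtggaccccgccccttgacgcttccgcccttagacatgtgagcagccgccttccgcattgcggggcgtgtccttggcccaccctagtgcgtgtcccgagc
Mrps24: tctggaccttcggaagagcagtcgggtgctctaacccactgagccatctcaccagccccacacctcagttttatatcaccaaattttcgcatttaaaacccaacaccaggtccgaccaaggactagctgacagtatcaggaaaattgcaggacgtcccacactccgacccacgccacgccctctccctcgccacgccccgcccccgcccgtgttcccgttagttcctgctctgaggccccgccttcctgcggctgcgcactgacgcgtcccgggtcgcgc
Mrps18c: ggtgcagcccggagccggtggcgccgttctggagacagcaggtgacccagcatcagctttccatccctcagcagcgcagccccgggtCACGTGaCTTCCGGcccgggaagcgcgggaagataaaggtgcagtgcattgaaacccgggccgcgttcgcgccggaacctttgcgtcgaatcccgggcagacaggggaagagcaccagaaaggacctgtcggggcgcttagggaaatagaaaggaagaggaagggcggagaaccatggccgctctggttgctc

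In Mrps12 the ETS motif begins at base 2 after the start, and in Mrpl34 it begins 37 bases before it. Mrps18c holds an ETS motif on the other strand 156 bases before the start, next to CACGTG, which reads ACGTG on both strands from 163 bases before the start. The windows of Mrps18b and Mrps24 hold no match to the letters searched. GCGTG, another form of the hypoxia response core, was not searched, and it does occur in both of these windows. Over all 67 members with a window, 22 (32.8%) held CCGGAAG, against 9.48% of 27025 genes with a window. The NRF1 motif, searched as GCGC, any base and TGCGC in a row, was in 12 (17.9%), against 4.98%. ACGTG was in 16 (23.9%), against 20.6% of all genes, and the ATF4 composite motif TGATGNAA was in 0, against 4.32%. All members were tested in these hearts, whereas the 27025 genes were not limited to tested genes. The members' windows were also richer in G and C (median 58.2%) than those of all genes (52.5%). The part of expression level and of base composition in these shares was not tested. The median log2 change was 0.14 with and 0.12 without CCGGAAG, 0.10 and 0.12 for the NRF1 motif, and 0.10 and 0.13 for ACGTG. For the YY1 motif it was 0.13 with and 0.12 without. A match describes the letters and not the binding of a factor. The RefSeq starts of Mrps24 and Mrps18c lie inside the gene spans that GENCODE gives.

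The log2 change of the members moved with the GC content of their transcripts. Over 75 members with a GENCODE M21 model, Spearman's rho was 0.39 for GC content and -0.26 for exon length, as descriptions over genes that share the same 6 libraries. In 5 groups of equal size set by GC content over all tested genes, from low to high, the members' median log2 change was 0.11, 0.12, 0.10, 0.18 and 0.23 (12, 17, 15, 20 and 11 members). Over all genes it was -0.10, -0.07, -0.03, 0.01 and 0.05. The members' median thus lay above that of all genes in each group. In the group of highest GC content their median deviation from the control mean was 0.41 in mutant 8 and -0.10 in control 2, the pair of hearts furthest apart on the first principal component. In 5 groups of exon length, from short to long, the members' median was 0.14, 0.13, 0.12, 0.11 and 0.04, against 0.05, 0.01, -0.02, -0.05 and -0.09 over all genes. The median exon length was 2172 bases in members and 4121 in all genes. With both trends removed in each heart, 65 of 75 members had a positive change, 62 of them positive before as well, with medians of 0.13 (large) and 0.16 (small), and 1 member passed (Mrps18b), against 1.45% of all genes in either direction and 0.682% higher in mutants.

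**Figure D4:**
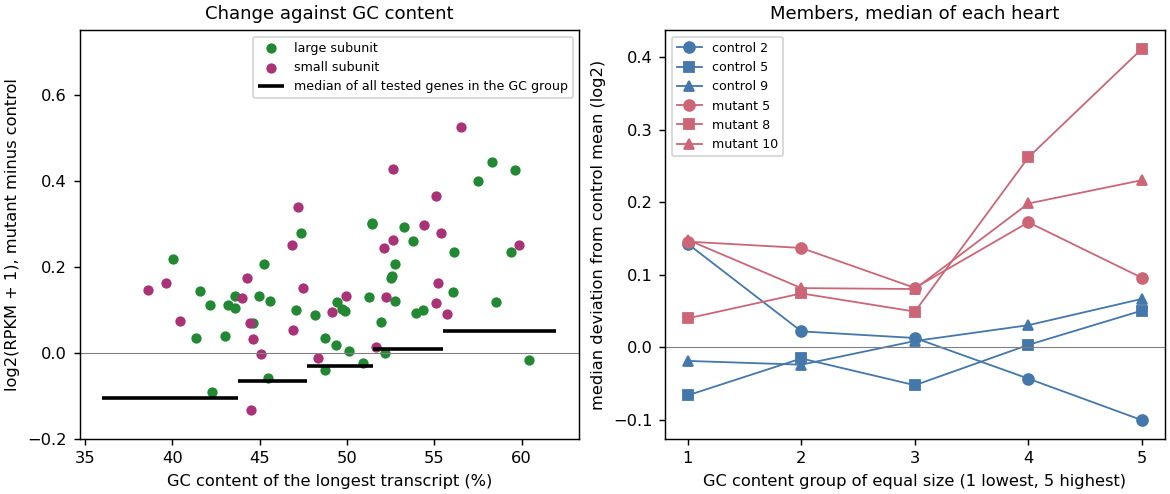
Left, log2 change of each member, mutant minus control, against the GC content in percent of its longest transcript, with bars at the median of all tested genes in 5 GC groups of equal size. Right, the members' median deviation from the control mean in each heart, by GC group. The members' median lies above that of all genes in each group, and mutant 8 and control 2 spread furthest apart in the GC-richest group.

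Mitochondrial ribosomal proteins whose symbols fall outside the Mrpl and Mrps pattern gave values of the same order. Of 7 tested, 6 had a positive log2 change (median 0.14), and 4 were higher without overlap, against 7.6% of all tested genes. Of these 7, 0 passed, with a smallest limma adjusted p of 0.28. Mrp63, a large subunit protein, had 5.11, 6.42 and 7.05 RPKM in controls and 7.50, 10.5 and 8.42 RPKM in mutants (0.44 ± 0.14, limma adjusted p = 0.28). All its mutants were above its controls. Ict1, a peptidyl-tRNA hydrolase built into the large subunit, had 30.6, 32.3 and 33.2 RPKM in controls and 37.5, 36.6 and 35.4 RPKM in mutants (0.18 ± 0.08, limma adjusted p = 0.47). Dap3, the GTP-binding small subunit protein, had a log2 change of 0.14, Gadd45gip1 of 0.17, Chchd1 of 0.13 and Aurkaip1 of 0.07. Ptcd3, an RNA-binding protein of the small subunit, was the exception with 34.6, 31.8 and 29.6 RPKM in controls and 32.5, 24.4 and 30.8 RPKM in mutants (-0.13 ± 0.12, limma adjusted p = 0.72).

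Genes that act on the mitochondrial ribosome had lower medians. Of 19 translation factors tested, 12 had a positive log2 change (median 0.04), 0 had no overlap and 0 passed. Tufm, the elongation factor that brings transfer RNAs to the ribosome, had 56.7, 60.3 and 65.9 RPKM in controls and 63.5, 65.4 and 84.3 RPKM in mutants (0.21 ± 0.12, limma adjusted p = 0.57). Tsfm, its nucleotide exchange factor, had a change of 0.24 ± 0.14 (limma adjusted p = 0.55). Lrpprc, which stabilises mitochondrial messenger RNAs, had a change of 0.23 ± 0.12 (limma adjusted p = 0.51). Of 28 assembly and rRNA modification factors tested, with both rows of Nsun4 counted, 18 had a positive change (median 0.05). In this list 5 were higher without overlap and 0 passed. Over all tested genes 7.6% were higher and 9.43% lower without overlap.

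Among the assembly factors, Mpv17l2, needed for ribosome assembly, had 5.64, 7.01 and 7.77 RPKM in controls and 9.32, 10.3 and 8.64 RPKM in mutants. Its genotypes did not overlap (0.42 ± 0.12, limma adjusted p = 0.23). Rbfa, which matures the small subunit, had 9.72, 9.46 and 9.66 RPKM in controls and 10.9, 11.6 and 10.9 RPKM in mutants (0.19 ± 0.09, limma adjusted p = 0.45). Nsun4, an rRNA methyltransferase, is listed under a pair of gene identifiers. The row with the smaller p, which has no GENCODE M21 position, had 7.29, 10.2 and 7.91 RPKM in controls and 10.4, 10.2 and 10.5 RPKM in mutants. Its genotypes overlapped (0.28 ± 0.12, limma adjusted p = 0.44). The other row, which has a position, also had overlap and a smaller change (0.16 ± 0.11, limma adjusted p = 0.64).

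Other gene lists had positive medians too. Complex I subunits join nuclear and mitochondrial products in the first respiratory complex. Of 36 such genes 33 had a positive log2 change (median 0.21) and 21 were higher without overlap (58.3%). Of 82 tested cytosolic ribosomal proteins 77 had a positive change (median 0.15), and 31 were higher (37.8%) and 1 lower without overlap. Over all tested genes 7.6% were higher and 9.43% lower without overlap. Of 17 mitochondrial aminoacyl-tRNA synthetases, which charge the transfer RNAs used by the same ribosome, 10 had a positive change (median 0.02). None of these lists had a gene past the adjusted threshold, with smallest limma adjusted p of 0.11, 0.25 and 0.39. The 3 mutants differed more in the complex I and cytosolic lists than in the members. The median deviation from the control mean in mutants 5, 8 and 10 was 0.20, 0.31 and 0.09 for complex I and 0.16, 0.23 and 0.05 for cytosolic ribosomal proteins. It was 0.02, -0.04 and 0.14 for the synthetases. No difference between the lists was tested.

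**Figure D5:**
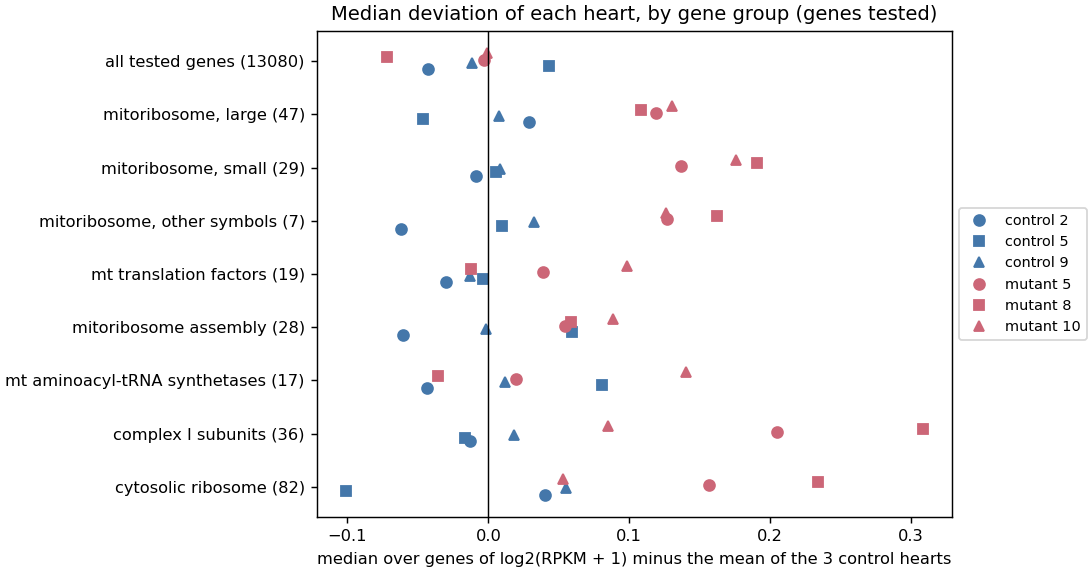
Median deviation from the control mean on the log2(RPKM + 1) scale in each heart, for large and small subunit members, the related gene lists and all tested genes. The members sit between 0.11 and 0.19 in the 3 mutant hearts, and all genes between -0.07 and -0.00.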

How the data were processed

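Total RNA of 6 embryonic hearts (3 control, 3 Hif1a mutant) was sequenced. The submitters' processing notes name Trim Galore, TopHat2 and mm10, without versions. Not given in the sources used here are the counting tool, its annotation and its use of strand. For 15118 genes the authors deposited linear RPKM values. The header of the table names no unit, so RPKM was taken from the values. In each library the low values of single-exon genes were whole multiples of a step, within 0.1 of a step, in 88.0% to 98.6% of cases, which puts the depth at 131000000 (control 2), 137000000 (control 5), 123000000 (control 9), 142000000 (mutant 5), 101000000 (mutant 8) and 157000000 (mutant 10) reads.

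Genes reaching 1 RPKM in 3 or more libraries (13080 tested, 2038 not) were compared on log2(RPKM + 1), with limma 3.58.1 in R 4.3.3 and a mean-variance trend. No covariates were used. All 6 hearts entered, and an adjusted p under 0.05 counted as passing. The step was tested on simulated data. RPKM gives the authors' length scaling, and a value added before the log understates changes of low genes. Of the gene identifiers 14877 were in GENCODE M21 (mm10), the source of positions, exon lengths and GC content. Of the members 75 were found there, and 31 share exonic bases with another gene. Named pseudogenes exist for 3 members and are not among the genes of the table. Promoters are from RefSeq.

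Members and gene lists were chosen with earlier results of these data known. Genes named are the 5 highest and 5 lowest log2 changes and the 3 highest and 3 lowest levels of each subunit, the Mrps18 paralogues, Mrps30, Mrpl12, Mrpl36, Mrpl41, Mrps36 and Mrps2 by role, the mitoribosomal proteins outside the symbol rule, and the 3 smallest p of the translation factor and assembly lists. Members without overlap were also listed by name, after their values were seen. Cers2, which matches the symbol pattern of the synthetases, was left out of them. There were 16 alternatives planned (scaling, filter, pseudocount, prior, hearts left out) and 1 added after the data were seen.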

Additional observations from a re-analysis of the deposited data

How the results depend on the processing

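Over 17 alternatives the number of members with a positive log2 change stayed between 60 and 72 of 76 (75 with the GC and length trend removed), and the medians of both subunits stayed positive. Of the values of single named genes, 814 stayed on their side of the adjusted threshold and 1 passed that had not (Mrps18b), while changes near 0 could differ in sign. Median centring gave medians of 0.15 (large) and 0.18 (small). Rescaling without haemoglobin gave 0.074 and 0.10, a log2 ratio of 0.14 for the small subunit sum, 11 members at an unadjusted limma p under 0.05 (3.01% of all genes), and 18 members with no overlap (4.61%). With the GC and length trend removed 1 member passed the adjusted threshold. Without control 2 and mutant 8, the ends of the first principal component, large minus small turned to 0.0013 and 52 members had no overlap, against 21% of all genes. Among the 4 hearts with chromosome Y expression 10 members were higher at an unadjusted limma p under 0.05 (3.37% of all genes).

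Leaving out 1 heart at a time, large minus small ranged from -0.090 (without mutant 5) to 0.0076 (without control 2). The large subunit median ranged from 0.10 to 0.14 and the small subunit median from 0.13 to 0.20. Members at an unadjusted limma p under 0.05 ranged from 13 to 21 (3.67% to 6.28% of all genes), members past the adjusted threshold from 0 to 0, and members with no overlap from 29 to 40 (10.1% to 14.7% of all genes, against 7.6% with all hearts). The log2 ratio of the sums ranged from 0.11 to 0.16 (large) and from 0.16 to 0.19 (small). No paired analysis was possible because the genotypes share a single heart number, 5, which the labels do not tie to a litter or day. The cause of these movements was not tested. By construction, fewer hearts widen the errors and can only keep or raise a count without overlap. The difference between the subunits was not tested.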
